A study of Mus musculus with 4 samples.

Results

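The 9 genes described here are 9 of the 16449 rows of the count table: Cbln2, Cbln1, Ncam1, L1cam, Cntn2, Dcc, Robo1, Robo2 and Nrp1. The rows were found by Ensembl identifier through the symbols. Cbln2 was chosen by its counts, which were among those that went up most in the libraries labelled Tut1 knockout, so its difference between the groups is a description and carries no test. The other 8 genes entered for what they do, as adhesion molecules and axon guidance receptors of young neurons.

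Young neurons carry surface proteins that hold them to their neighbours and steer their axons. Cerebellins are secreted proteins that bind neurexins on axons and glutamate receptors of the delta family on dendrites, and so bridge a forming synapse. NCAM1, L1CAM and the contactin CNTN2 are immunoglobulin-domain adhesion molecules that bind their own kind or one another on growing axons. DCC is the receptor through which netrin attracts axons, ROBO1 and ROBO2 are receptors for the repellent Slit proteins, and neuropilin 1 (NRP1) binds class 3 semaphorins and, in vessels, VEGF.

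The tissue was dorsal and medial palliums, taken from mouse embryos of E11.5, an age at which progenitors dominate this wall of the forebrain and few neurons have been born. There were 2 groups of 2 libraries, WT and Tut1 knockout. The knockout is Tut1 f/f;Emx1-Cre, in which exon 2 of Tut1 lies between loxP sites and Cre acts where Emx1 is active. The study gives the Cre line as B6.129S2-Emx1tm1(cre)Krj/J. The study's sequencing statistics list the WT libraries as Tut1 f/f, so all 4 libraries carry the floxed allele and WT stands for the absence of Cre. Cells of the dissection that never expressed Emx1, such as vessels, meninges and microglia, keep Tut1 in both groups. The number of embryos per library and whether the replicates are separate embryos are not stated, so that p-values bear on these libraries only. The spread used for each gene was borrowed mostly from all genes tested (2 residual and 37.5 prior degrees of freedom).

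Between 305642 and 397150 reads were assigned to genes per library, and 1 read was worth 2.66 to 3.47 CPM (counts per 1000000 counts of tested genes after TMM scaling). The study's sequencing statistics list far more total reads per library, so depth here means the reads counted in the deposited data. Of all genes, 5878 were abundant enough to be tested. Tut1 itself had 6 and 11 counts in WT against 29 and 25 in the libraries labelled Tut1 knockout, with a log2 fold change of 1.71 (edgeR quasi-likelihood test, adjusted p = 0.0113). That call was lost without WT replicate 1 (adjusted p = 0.133) or either KO-labelled library (0.2 and 0.16). Recombination removes exon 2 alone, so transcripts of the deleted allele still count as Tut1, and these counts do not tell whether the exon was lost. The libraries are therefore named by their label, as KO-labelled libraries, throughout. WT replicate 1 was the only library with Xist counts (64), and the other 3 had counts of Y-linked genes (41 to 78). The pallial marker Pax6 had 137 and 119 counts in WT against 132 and 93 in the KO-labelled libraries, and 15 of 16 pan-neuronal markers were detected, all but Nefl.

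Among the 6 tested genes other than Cbln2, Ncam1 was the only one to pass the threshold, rising 1.93-fold, and none of them was called lower. Over all tested genes 2.06% were called, 1.40% higher and 0.663% lower. Robo2 (2.37-fold) and L1cam (2.28-fold) had larger fold changes on fewer counts and did not pass. Dcc, Nrp1 and Cntn2 had fold changes of 1.39, 1.30 and 1.03, and did not pass either. Robo1 was too low to be tested, and Cbln1 had 1 read in all 4 libraries together.

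**Figure D1:**
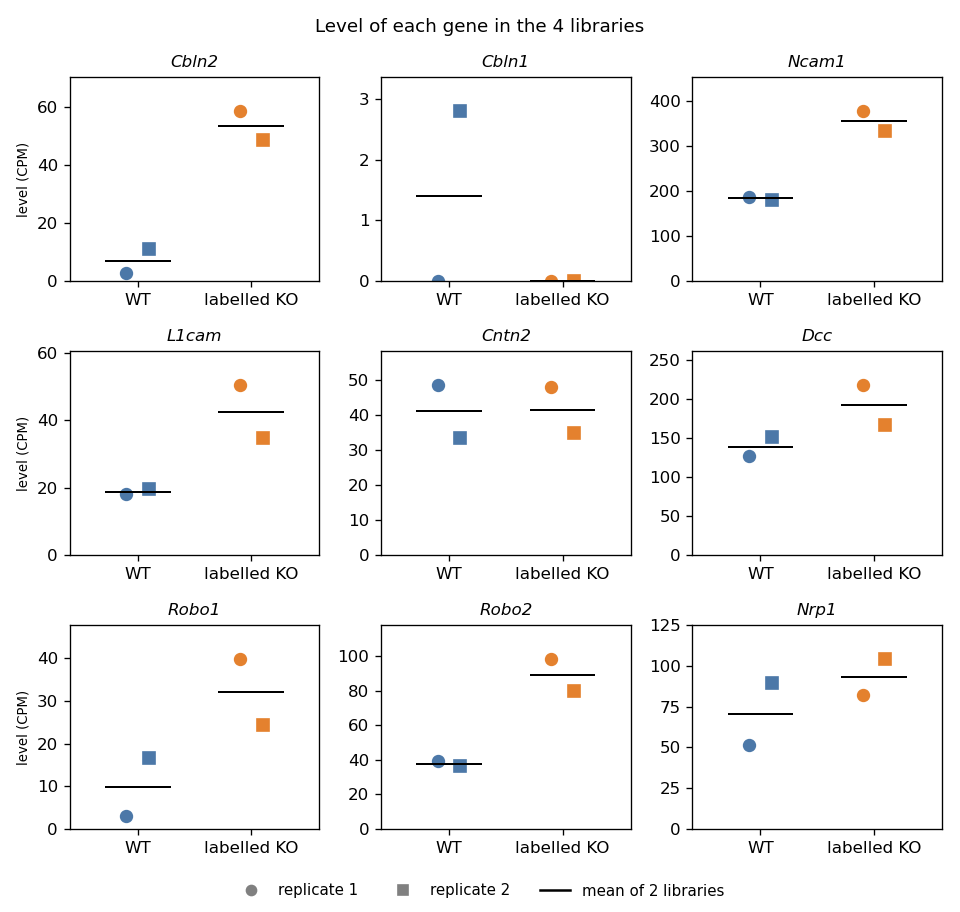
Level of each gene in CPM (vertical axis, linear and starting at 0, a scale for each gene) in the 2 WT and 2 labelled knockout libraries, with points for libraries, circles for replicate 1, squares for replicate 2 and a line for the mean of 2 libraries. The groups were apart and higher for Cbln2, Ncam1, L1cam, Dcc, Robo1 and Robo2, where 22.1% of all tested genes were, and overlapped for Cntn2, Nrp1 and Cbln1. Cbln2, L1cam and Robo1 reached the level of the filter in KO-labelled libraries alone.

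Cbln2 (ENSMUSG00000024647; GRCm38 chromosome 18, 86711110 to 86718283, plus strand) encodes cerebellin 2, the synapse organiser of the forebrain. Its counts were 1 and 4 in WT against 22 and 14 in the KO-labelled libraries. In CPM these were 3.03 and 11.2 against 58.5 and 48.6, so that the KO-labelled pair was above the WT pair. The mean was 7.10 ± 5.76 CPM in WT against 53.5 ± 6.96 CPM in the KO-labelled libraries (SD, n = 2 each). The fitted log2 fold change was 2.83 ± 0.58 (SE), or 7.13-fold with a 95% interval of 3.15 to 16.2, and ranked 5 among the 5878 tested genes by size of rise. This is the value by which the gene was chosen, and it is read no further.

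The WT level of Cbln2 rests on 5 reads in all, for which counting error alone allows 1.62 to 11.7, against 36 reads in the KO-labelled libraries, for which it allows 25.2 to 49.8 (exact Poisson 95% limits). Leaving out WT replicate 1 put the log2 fold change at 2.23 and leaving out WT replicate 2 put it at 3.99, with 2.68 and 2.95 when replicate 1 or 2 labelled knockout was left out. The size of the difference thus depended on which WT library was kept, while the KO-labelled libraries moved it little. Cbln2 passed the filter on low counts through the KO-labelled libraries alone, neither WT library reaching its level.

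Cbln1 (ENSMUSG00000031654; chromosome 8, 87468405 to 87472609, minus strand), the cerebellin best known from cerebellar granule cells, had 0 and 1 counts in WT against 0 and 0 in the KO-labelled libraries. A level of up to 7.97 to 10.4 CPM per library would be compatible with a count of 0, taking 3 counts as the floor. No difference could be read at this depth.

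Ncam1 (ENSMUSG00000039542; chromosome 9, 49502136 to 49798925, minus strand) encodes the neural cell adhesion molecule, which is made by neurons of nearly all kinds from their birth. It had 62 and 65 counts in WT against 142 and 96 in the KO-labelled libraries. The levels were 187.8 and 181.6 CPM in WT against 377.4 and 333.4 CPM in the KO-labelled libraries, and the groups were apart. Its 127 WT reads allow 105.9 to 151.1 by counting error and its 238 reads in the KO-labelled libraries allow 208.7 to 270.2. The mean went from 184.7 ± 4.42 to 355.4 ± 31.1 CPM (SD, n = 2 each), and the log2 fold change was 0.95 ± 0.20 (SE, 95% interval 0.54 to 1.36; edgeR quasi-likelihood test, adjusted p = 0.00494). The size of the change held between 0.85 and 1.03 over 15 alternative analyses.

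The call on Ncam1 needed 3 of the 4 libraries. By the same test, the adjusted p was 0.0458 without WT replicate 1, 0.0563 without WT replicate 2, 0.23 without KO-labelled replicate 1 and 0.0586 without KO-labelled replicate 2. With DESeq2, which called 12 genes in all, it was 0.153.

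L1cam (ENSMUSG00000031391; chromosome X, 73853778 to 73896105, minus strand), an adhesion molecule of fasciculating axons, had 6 and 7 counts in WT against 19 and 10 in the KO-labelled libraries. The levels of 18.2 and 19.6 CPM in WT lay below the 50.5 and 34.7 CPM of the KO-labelled libraries. The log2 fold change was 1.19 ± 0.49 (SE, 95% interval 0.20 to 2.18; edgeR quasi-likelihood test, adjusted p = 0.233), which does not pass. As with Cbln2, neither WT library would have carried the gene past the filter. It is X-linked and WT replicate 1 was the only library with Xist. Without that library the log2 fold change was 1.13, on 1 WT library of 7 reads, and the part of embryo sex was not tested. Over 14 alternatives the log2 fold change ranged from 0.87, without KO-labelled replicate 1, to 1.86, after thinning to the smallest library.

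Cntn2 (ENSMUSG00000053024; chromosome 1, 132509427 to 132543256, minus strand) encodes contactin 2, also known as TAG-1, a marker of the first axons to leave the cortex. Its counts were 16 and 12 in WT against 18 and 10 in the KO-labelled libraries. In CPM the libraries read 48.5 and 33.5 against 47.8 and 34.7, and the groups overlapped completely. The means were 41.0 ± 10.6 and 41.3 ± 9.26 CPM (SD, n = 2 each). The log2 fold change was 0.04 ± 0.41 (SE; edgeR quasi-likelihood test, adjusted p = 0.979). Its 95% interval of -0.79 to 0.88 leaves room for a change nearly as large as that of Ncam1, and the sign turned when either WT replicate 2 (-0.22) or KO-labelled replicate 1 (-0.23) was left out.

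Dcc (ENSMUSG00000060534; chromosome 18, 71253634 to 72351069, minus strand), the netrin receptor, was second in counts after Ncam1, with 42 and 54 counts in WT against 82 and 48 in the KO-labelled libraries. The levels were 127.2 and 150.8 CPM in WT against 217.9 and 166.7 CPM in the KO-labelled libraries, so that the groups were apart by a small margin. The log2 fold change was 0.48 ± 0.24 (SE, 95% interval -0.02 to 0.97; edgeR quasi-likelihood test, adjusted p = 0.375), and it was 0.26 without KO-labelled replicate 1.

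Robo1 and Robo2, the Slit receptors, lie on chromosome 16 as neighbours of 1 gene family (Robo1, ENSMUSG00000022883, 72308306 to 73046095, plus strand, and Robo2, ENSMUSG00000052516, 73891839 to 74411825, minus strand). Sequence before 1 start site of each is shown with that of Cntn2 for the E-box matches it holds. No difference between the 3 genes was tested. Each run holds the 250 bases before a RefSeq start site on GRCm38.p6, 5′ to 3′ on the strand of the gene, with matches to the E-box CANNTG in capitals. An E-box is the short motif that basic helix-loop-helix factors bind, among them the proneural factors of the cortex. Its letters read the same on both strands.

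Robo1, chr16:72662899-72663148, plus strand: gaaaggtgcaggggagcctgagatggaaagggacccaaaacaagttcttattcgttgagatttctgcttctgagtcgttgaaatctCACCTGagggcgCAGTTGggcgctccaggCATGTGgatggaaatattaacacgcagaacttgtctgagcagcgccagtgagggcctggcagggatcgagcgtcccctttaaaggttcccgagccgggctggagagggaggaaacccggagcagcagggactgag
Robo2, chr16:74411826-74412075, minus strand: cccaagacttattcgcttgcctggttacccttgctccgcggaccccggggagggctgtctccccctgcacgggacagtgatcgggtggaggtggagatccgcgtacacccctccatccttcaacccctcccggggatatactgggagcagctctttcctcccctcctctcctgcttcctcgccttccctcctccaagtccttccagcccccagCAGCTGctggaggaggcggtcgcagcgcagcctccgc
Cntn2, chr1:132542941-132543190, minus strand: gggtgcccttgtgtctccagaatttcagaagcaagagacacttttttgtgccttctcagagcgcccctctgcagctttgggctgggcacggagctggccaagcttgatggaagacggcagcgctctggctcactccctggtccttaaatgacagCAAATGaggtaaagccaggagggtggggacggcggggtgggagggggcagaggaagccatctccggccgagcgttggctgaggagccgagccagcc

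The Robo1 run lies within the annotated gene, before an internal start site, and holds 3 matches within a short stretch. The Robo2 run, 1 of 3 listed for that gene, holds 1 match, as does the Cntn2 run, which lies just inside the annotated gene. Of 32851 upstream runs of the same length, 66.2% held at least 1 match and 12.2% held at least 3. Matches are counted as letters only, and the Nrp1 run holds none, while the 2 overlapping L1cam runs hold 1 and 2. Runs were found for 5 of the 9 genes.

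Robo2 had 13 and 13 counts in WT against 37 and 23 in the KO-labelled libraries. Its levels were 39.4 and 36.3 CPM in WT against 98.3 and 79.9 CPM in the KO-labelled libraries, and the groups were apart. Its 26 WT reads allow 17.0 to 38.1 by counting error and its 60 reads in the KO-labelled libraries allow 45.8 to 77.2. The mean was 37.8 ± 2.17 CPM in WT against 89.1 ± 13.0 CPM in the KO-labelled libraries (SD, n = 2 each). The log2 fold change of 1.24 ± 0.36 (SE, 95% interval 0.52 to 1.97; edgeR quasi-likelihood test, adjusted p = 0.056) missed the threshold narrowly. It passed under 3 alternatives, with adjusted p between 0.0424 and 0.0461, and over all alternatives the adjusted p lay between 0.0424 and 0.443.

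Robo1 had 1 and 6 counts in WT against 15 and 7 in the KO-labelled libraries, and just 1 of these libraries reached the level that the filter asks of 2. The levels were 3.03 and 16.8 CPM in WT against 39.9 and 24.3 CPM in the KO-labelled libraries, apart, with a ratio of mean CPM of 3.24. With no filter on low counts the log2 fold change was 1.67 (edgeR quasi-likelihood test, adjusted p = 0.225 over 15083 genes). Its 7 WT reads allow 2.81 to 14.4 by counting error and its 22 reads in the KO-labelled libraries allow 13.8 to 33.3.

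Nrp1 (ENSMUSG00000025810; chromosome 8, 128358604 to 128503363, plus strand) had 17 and 32 counts in WT against 31 and 30 in the KO-labelled libraries. The levels were 51.5 and 89.4 CPM in WT against 82.4 and 104.2 CPM in the KO-labelled libraries, and the groups overlapped because WT replicate 2 lay above KO-labelled replicate 1. The log2 fold change was 0.38 ± 0.32 (SE, 95% interval -0.27 to 1.02; edgeR quasi-likelihood test, adjusted p = 0.67). It was 0.04 without WT replicate 1 and 0.82 without WT replicate 2. Endothelial cells also make neuropilin 1, and the summed level of 10 endothelial markers was 233.2 and 257.0 CPM in WT against 411.9 and 385.5 CPM in the KO-labelled libraries. None of the 3 of them tested passed the threshold, and the part of vessels in the reads of Nrp1 was not tested.

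**Figure D2:**
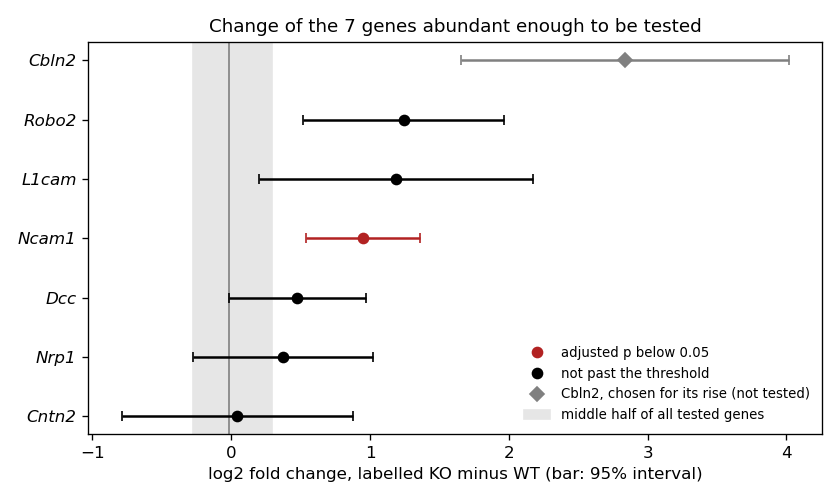
Log2 fold change of the 7 genes that could be tested (horizontal axis, labelled knockout minus WT; bars are 95% intervals), with the middle of the distribution of all tested genes, from -0.28 to 0.29, shaded. Ncam1 passed the threshold, and Cbln2 is drawn in grey because it was chosen for this value.

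Of the 5 genes that both groups carried past the filter, Ncam1, Dcc and Robo2 had both KO-labelled libraries above both WT libraries, and Cntn2 and Nrp1 overlapped. Over all tested genes 22.1% lay apart in this direction and 20.8% in the other. The median log2 fold change of the 5 genes was 0.48, and that of all tested genes was -0.01. Of the 5 genes, Ncam1 and Robo2 stood at an unadjusted p below 0.05, where 7.88% of all tested genes did so on the higher side. The genes are few and were chosen with results known, and the numbers describe them only.

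**Figure D3:**
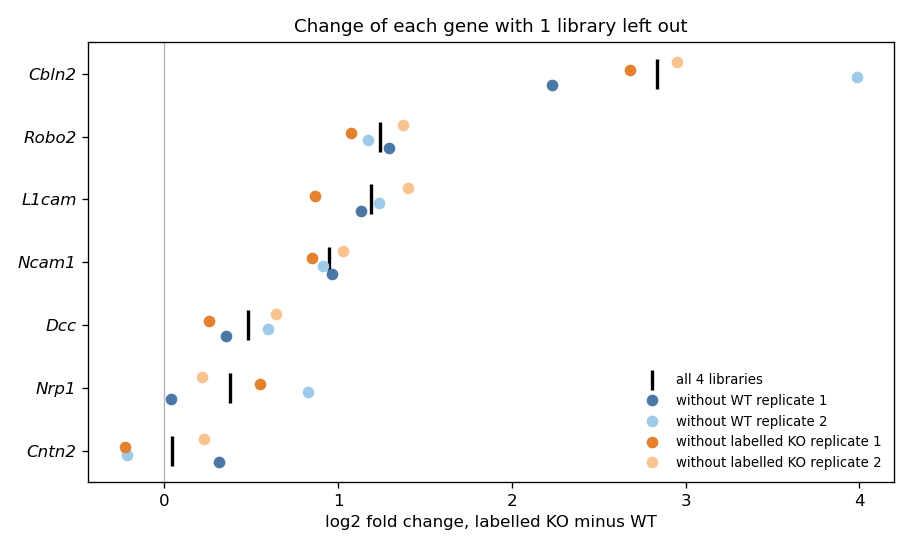
Log2 fold change of the same 7 genes (horizontal axis) with all 4 libraries (black bar) and with each library left out in turn (coloured points). Cbln2 ranged from 2.23 to 3.99 and Cntn2 changed sign, while Ncam1 stayed between 0.85 and 1.03.

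To compare levels between genes, CPM was divided by the length in kilobases of the longest annotated transcript. The order depends on that division, which a long read that stands for a whole transcript may not need, and orders by CPM alone are given beside it. In WT, Ncam1 stood highest at 28.1 ± 0.67 CPM per kb (SD, n = 2), followed by Nrp1 at 19.3 ± 7.35 and Dcc at 13.5 ± 1.62. Then came Cntn2 at 5.59, Robo2 at 4.41, L1cam at 3.68, Cbln2 at 2.79, Robo1 at 1.31 and Cbln1 at 0.50 CPM per kb. Neighbours in this order overlapped between their libraries, except that Ncam1 lay apart from Nrp1, Dcc from Cntn2, and Robo2 from L1cam. The level of Nrp1 rests on a longest annotated transcript of 3645 bases and 4 exons, and a longer one would lower it. By CPM alone, Dcc (139.0) stood above Nrp1 (70.4) and Robo1 (9.89) above Cbln2 (7.10) in WT.

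In the KO-labelled libraries the top of the order was Ncam1 at 54.1 ± 4.73 CPM per kb and Nrp1 at 25.6 ± 4.23, and Cbln2 came next at 21.0 ± 2.73 (SD, n = 2 each). Cbln2 there overlapped both Nrp1 above it and Dcc below it, at 18.6 CPM per kb. Robo2 followed at 10.4, L1cam at 8.31, Cntn2 at 5.63 and Robo1 at 4.24 CPM per kb. In this group Ncam1 lay apart from Nrp1, Dcc from Robo2, L1cam from Cntn2 and Robo1 from Cbln1. By CPM alone, Dcc (192.3), Nrp1 (93.3) and Robo2 (89.1) all stood above Cbln2 (53.5) in these libraries.

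Summed reads of neuronal marker genes were also more frequent in the KO-labelled libraries. The 16 pan-neuronal markers summed to 1727 and 1690 CPM in WT against 2636 and 2476 CPM in the KO-labelled libraries, a ratio of 1.497. Of the 10 that were tested, 2 were called higher and none lower. These were Mapt, the axonal microtubule protein tau (33, 43, 162 and 101 counts in WT replicates 1 and 2 and KO-labelled replicates 1 and 2; log2 fold change 1.83 ± 0.22, SE; edgeR quasi-likelihood test, adjusted p = 8.85e-07), and Dcx, the doublecortin of migrating neurons (36, 36, 86 and 70 counts; 1.17 ± 0.24, adjusted p = 0.00461). The most abundant were not called, Map2, a dendritic microtubule protein, with 249, 247, 318 and 206 counts (0.12 ± 0.15, adjusted p = 0.815), which overlapped, and Rbfox3, the neuronal nuclear antigen NeuN, with 66, 72, 104 and 94 counts (0.58 ± 0.21, adjusted p = 0.149). In tissue RNA of this kind, more cells of a type and more RNA per cell cannot be told apart.

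Each gene was therefore also set against the neuronal reads, as counts per 1000 counts of the 16 pan-neuronal markers, which numbered 570 and 605 in WT against 992 and 713 in the KO-labelled libraries. On this scale Ncam1 was at 108.8 and 107.4 in WT against 143.1 and 134.6 in the KO-labelled libraries, with a ratio of means of 1.29. Robo2 was at 22.8 and 21.5 against 37.3 and 32.3 (ratio 1.57). The groups were apart for both genes, where 4.36% of all tested genes lay apart and higher. L1cam was at 10.5 and 11.6 against 19.2 and 14.0 (ratio 1.502), and Cbln2 at 1.75 and 6.61 against 22.2 and 19.6 (ratio 4.998). L1cam and Cbln2 were apart too, but passed the filter through the KO-labelled libraries alone, so their higher position is a description only.

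The remaining genes behaved otherwise on this scale. Dcc overlapped, at 73.7 and 89.3 in WT against 82.7 and 67.3 in the KO-labelled libraries (ratio 0.92), as did Nrp1 (ratio 0.89) and Robo1 (ratio 2.14). Cntn2 lay apart and lower, at 28.1 and 19.8 in WT against 18.2 and 14.0 in the KO-labelled libraries, a ratio of 0.67. Over all tested genes 4.36% lay apart and higher on this scale and 65.2% apart and lower, so that the position of Cntn2 was that of most genes.

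Map2 alone made up 43.7% and 40.8% of the marker counts in WT against 32.1% and 28.9% in the KO-labelled libraries. Without it, a choice made after seeing the data, Ncam1 was at 193.1 and 181.6 in WT against 210.7 and 189.3 in the KO-labelled libraries and the groups overlapped (ratio 1.07). Robo2 (ratio 1.31) stayed apart and higher. So did L1cam (1.25), by a narrow gap of 19.6 in WT replicate 2 to 19.7 in KO-labelled replicate 2, and Cbln2 (4.22). L1cam and Cbln2 passed the filter through the KO-labelled libraries alone, so their higher position is a description only. Cntn2 (0.56) and Dcc (0.77) were apart and lower. Over all tested genes 2.04% were then apart and higher and 79.1% apart and lower. These ratios carry no test, and 2 libraries a group cannot give an exact two-sided permutation p below 0.333.

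**Figure D4:**
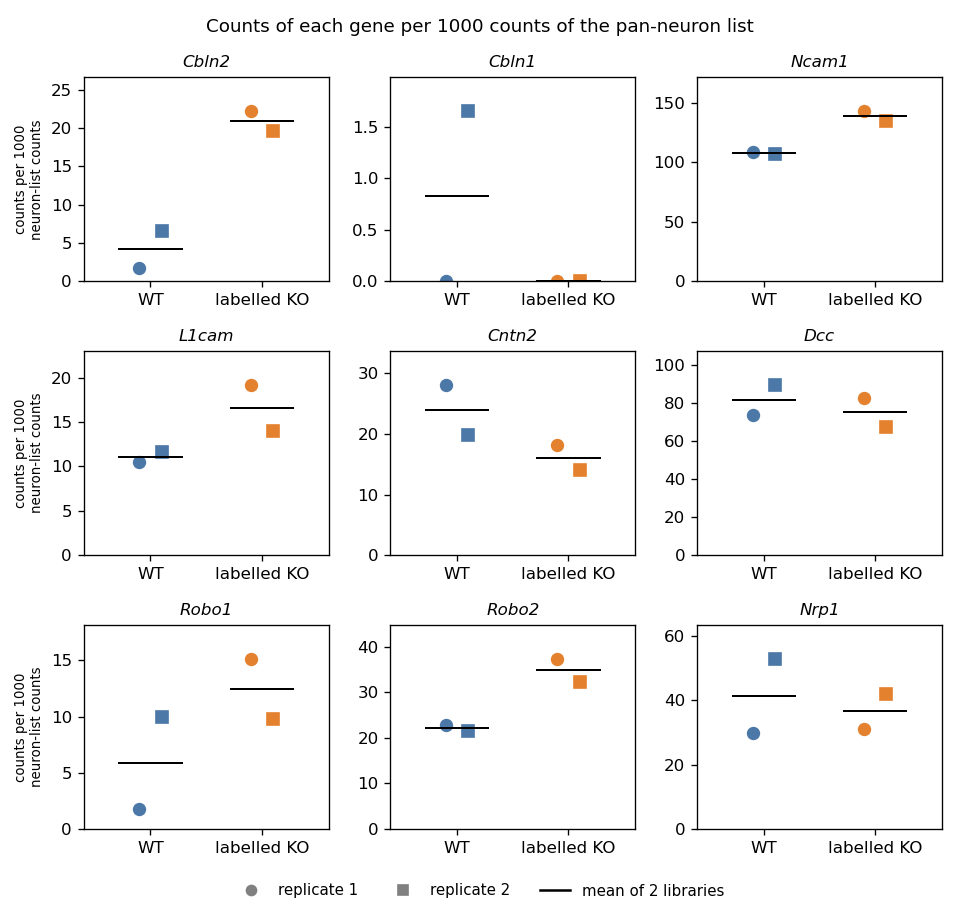
Counts of each gene per 1000 counts of the 16 pan-neuronal markers (vertical axis, linear and starting at 0), by library and group, with a line for the mean of 2 libraries. On this scale Ncam1 and Robo2 lay higher in both KO-labelled libraries, as did 4.36% of all tested genes. L1cam and Cbln2 lay higher too, but passed the filter through those libraries alone, and Cbln2 was chosen for its difference. Dcc, Nrp1, Robo1 and Cbln1 overlapped, and Cntn2 was lower. With Map2 left out of the markers, Ncam1 overlapped and Dcc was lower.

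Summed markers of other cells differed between the groups too. The 10 microglial markers summed to 99.96 and 108.9 CPM in WT against 422.5 and 343.8 CPM in the KO-labelled libraries, and the 4 tested, Cx3cr1, Aif1, Csf1r and Tyrobp, were all called higher, although all but Csf1r passed the filter through the KO-labelled libraries alone. The 10 mesenchymal and meningeal markers in the table summed to 142.4 and 340.8 CPM in WT against 568.7 and 385.5 CPM, with Col1a2 called of 5 tested, and the 9 subpallial or GABAergic markers to 109.0 and 173.2 against 273.7 and 225.8 CPM, with Dlx1 called of 3 tested. Col1a2 and Dlx1 too passed the filter through the KO-labelled libraries alone, and no gene of the mesenchymal or the GABAergic list that both groups carried past it was called. The 15 progenitor markers in the table summed to 2865 and 2785 CPM in WT against 2009 and 2195 CPM in the KO-labelled libraries, and of the 13 tested Lhx2, a progenitor transcription factor of the cortex, was the only one called (348, 272, 106 and 106 counts; log2 fold change -1.49 ± 0.18, SE; edgeR quasi-likelihood test, adjusted p = 6.48e-07). Without Lhx2 the progenitor sums were 1811 and 2025 CPM in WT against 1727 and 1827 CPM in the KO-labelled libraries and overlapped.

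The remaining marker lists held 2 calls. Cajal-Retzius and preplate markers, of the first neurons at the cortical surface, summed to 121.2 and 159.2 CPM in WT against 220.6 and 177.1 CPM in the KO-labelled libraries, and neither of the 2 tested, Tbr1 and Ebf2, was called. Reln, their defining gene, is named outside the rule and was too low to be tested, with 0 and 0 counts in WT against 4 and 3 in the KO-labelled libraries. The untested genes of this list went both ways, as with Ndnf at 7 and 5 counts in WT against 4 and 1 in the KO-labelled libraries. Intermediate progenitor markers summed to 342.3 and 226.2 against 358.8 and 420.3 CPM with none of 4 called, markers of the hem and choroid plexus to 202.9 and 357.5 against 465.1 and 267.4 CPM with Ttr called of 3, and red cell genes to 1384 and 1869 against 2309 and 1521 CPM with Hbb-bh1 called lower of 6. Of the 11 marker genes called, Mapt was called whichever library was left out and the other 10 were not called without KO-labelled replicate 1 (edgeR quasi-likelihood test, adjusted p from 0.0539 for Lhx2 to 0.864 for Ttr, whose log2 fold change was then 0.28). Without KO-labelled replicate 2 Dcx, Dlx1, Col1a2, Csf1r, Tyrobp and Hbb-bh1 were not called either (0.0616 to 0.232), nor Dlx1, Col1a2, Csf1r and Tyrobp without WT replicate 1 (0.0574 to 0.205), nor Ttr and Hbb-bh1 without WT replicate 2 (0.0518 and 0.565). Calls were lost under other methods too, on Tyrobp and Col1a2 with limma-voom and on Tyrobp with the replicate block. DESeq2 did not call Dcx, Csf1r or Ttr, and thinning to the smallest library lost Dcx, Dlx1, Col1a2, Ttr and Hbb-bh1. The part of any of these cells in the reads of the 9 genes was not tested.

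The tested genes whose levels over the 4 libraries were most like those of Cbln2, by root mean square difference of centred log2 CPM, were Chd5 (0.15), Tyrobp (0.17), Dhrs3 (0.18), Col1a2 (0.23) and Cdkn1a (0.25). Chd5, a chromatin remodeller of neurons, had 4 and 13 counts in WT against 52 and 40 in the KO-labelled libraries. Tyrobp, a signalling adaptor of microglia, had 1 and 4 against 16 and 13 counts. With 4 libraries and few reads, this likeness says little beyond a shared low level in WT replicate 1 and a higher one in the KO-labelled libraries.

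Beyond the 9 genes, 127 other genes of adhesion and guidance were listed in 7 families, of which 55 were tested. Of these, 5 were called higher and none lower, 35 had a log2 fold change above 0, and the median was 0.20, where 2.06% of all tested genes were called and 48.4% lay above 0. Of the 50 with at least 1 library of each group at the level of the filter, 4 were called, 20 lay apart and higher, 6 lay apart and lower, and the median was 0.18, beside 22.1% and 20.8% of all tested genes that lay apart and higher or lower. At an unadjusted p below 0.05 there were 13 higher and 2 lower among the 50. Of all tested genes 14.2% stood there in either direction and 7.88% on the higher side. The lower count is thus not above the share of all tested genes, and the absence of lower calls is read no further.

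**Figure D5:**
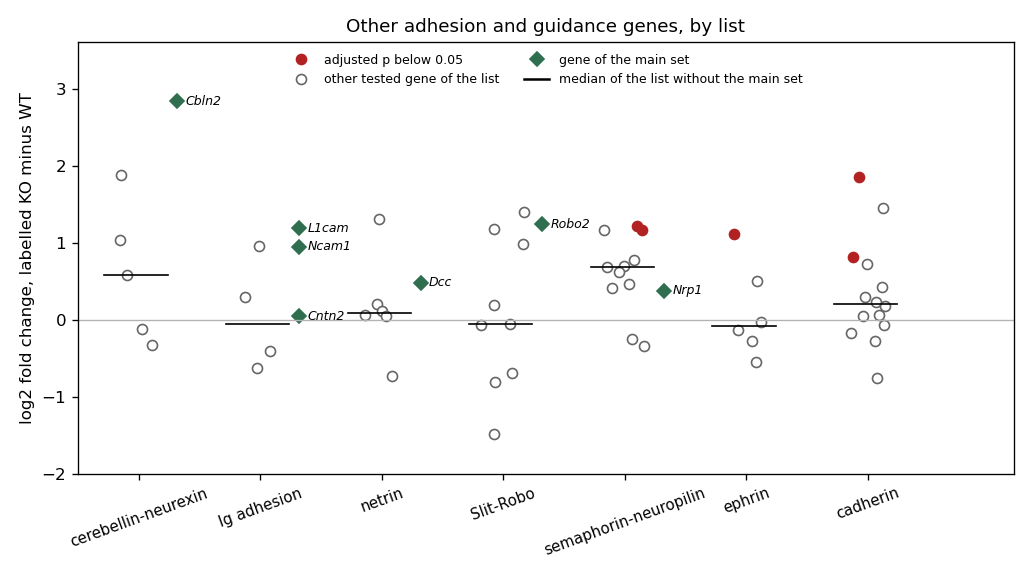
Log2 fold change (vertical axis, labelled knockout minus WT) of each tested gene by family, with filled red circles for genes with an adjusted p below 0.05, open circles for other genes, green diamonds for the genes of the main set and a line for the family's median without them. Called genes stand in the semaphorin, ephrin and cadherin families.

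The semaphorin and neuropilin family held Dpysl3, a collapsin response mediator that passes semaphorin signals to the growth cone cytoskeleton, with 35 and 41 counts in WT against 100 and 71 in the KO-labelled libraries (log2 fold change 1.22 ± 0.24, SE; edgeR quasi-likelihood test, adjusted p = 0.00237). It also held Sema6a, a transmembrane semaphorin, with 26 and 35 against 83 and 50 counts (1.16 ± 0.26, adjusted p = 0.00798). Both groups were apart for these genes, and the family's median over 11 tested genes was 0.69. The abundant Dpysl2 overlapped (48 and 35 against 51 and 59 counts, adjusted p = 0.455).

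In the ephrin family, Epha5, a receptor of axon mapping, had 34 and 20 counts in WT against 65 and 48 in the KO-labelled libraries (1.11 ± 0.28, SE, adjusted p = 0.026), while Ephb2 had 32 and 35 against 24 and 20 (-0.55 ± 0.31, adjusted p = 0.442). The family's median over 6 tested genes was -0.08. Among 14 cadherins and catenins, with a median of 0.20, Fat4 was called with 71 and 67 against 111 and 121 counts (0.82 ± 0.21, adjusted p = 0.0266). Pcdh9, a protocadherin of neurons, was called with 1 and 10 against 25 and 14 counts (1.85 ± 0.51, adjusted p = 0.043), having passed the filter through the KO-labelled libraries alone. Celsr2, the most abundant gene of the family, had 292 and 308 against 287 and 260 counts (-0.07 ± 0.14, adjusted p = 0.891).

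These 5 calls also leaned on individual libraries. That on Dpysl3 was lost without KO-labelled replicate 1 (edgeR quasi-likelihood test, adjusted p = 0.172), and that on Sema6a without WT replicate 1 (0.123), KO-labelled replicate 1 (0.328) or KO-labelled replicate 2 (0.0627). That on Epha5 was lost without WT replicate 2 (0.385) or either KO-labelled library (0.346 and 0.209), and that on Pcdh9 without WT replicate 1 (0.44) or either KO-labelled library (0.55 and 0.215). The log2 fold change of Pcdh9 was 1.05 without WT replicate 1 and 4.10 without WT replicate 2, and its call was also lost with limma-voom (adjusted p = 0.149), the replicate block (0.0947) and the length correction (0.0558). That on Fat4 was lost whichever library was left out, with adjusted p between 0.0712 and 0.388, and with the replicate block (0.0557). DESeq2 called none of the 5 and gave no adjusted p for Pcdh9, and after thinning to the smallest library Dpysl3 alone was called (0.0397).

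The other 4 families gave no call. The median was 0.58 over 5 tested genes of the cerebellin and neurexin family, -0.06 over 4 immunoglobulin adhesion molecules, 0.09 over 6 netrin and DCC genes and -0.06 over 9 Slit and Robo genes. Of their 21 genes with a library of each group at the level of the filter, 5 stood at an unadjusted p below 0.05 on the higher side and 1 on the lower. Of all tested genes 14.2% stood there in either direction and 7.88% on the higher side. None of their most abundant genes passed the threshold. The synaptic adhesion genes Nlgn1 and Nrxn2 had log2 fold changes of -0.12 and -0.32, the axonal adhesion molecules Nfasc and Nrcam 0.29 and 0.95, Neo1, a relative of Dcc, and its ligand Rgmb 0.20 and 0.11, and the Robo effectors Srgap3 and Srgap2 -0.06 and 0.19. The smallest adjusted p of these 8 genes was 0.0729, that of Nrcam.

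Some direct partners of the 9 genes are named outside the rule, with their values known. Nrxn3, a neurexin, had 1 and 7 against 18 and 11 counts (edgeR quasi-likelihood test, adjusted p = 0.0757), having passed the filter through the KO-labelled libraries alone. Nrp2, the sister receptor of Nrp1, had 13 and 16 against 44 and 20 counts (adjusted p = 0.0702). Robo3, the Robo relative of commissural axons, had 18 and 17 against 9 and 3 counts (log2 fold change -1.48 ± 0.48, SE, adjusted p = 0.098), having passed the filter through WT alone, and the ligand gene Slit2 had 20 and 27 against 16 and 12 counts (adjusted p = 0.412). None of these 4 passed the threshold.

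Several of the 9 genes overlap other annotated genes, and the use of strand in counting is not stated. L1cam overlaps Arhgap4 and Avpr2, Cbln1, Ncam1 and Robo1 each overlap 1 gene of the opposite strand, Robo2 overlaps 7 small genes, and Nrp1 overlaps the microRNA gene Mir1903. No overlapping gene is annotated for Cbln2, Cntn2 or Dcc.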

How the data were processed

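Poly(A)-enriched RNA of 4 libraries, WT replicates 1 and 2 and replicates 1 and 2 labelled Tut1 knockout, was sequenced as Nanopore long reads. The authors aligned reads to the Ensembl mouse transcriptome with minimap2 and processed them with FLAIR, and deposited raw read counts for 16449 genes, with no normalization, on GRCm38. How isoforms were summed and whether strand was used are not given in the sources used here. Total counts per library ranged from 305642 to 397150, and the median count of a tested gene from 19 to 25. Intervals from counts cover counting error only. Libraries of 1 group differed by more than counting noise (chi-square per degree of freedom 1.64 and 1.49), so that no pair looked like a repeat deposit of the same library. By their Xist and Y-linked counts the 2 WT libraries did not come from the same embryo. For the pair labelled knockout this was not shown, repeat preparations can differ as much, and n counts libraries as labelled.

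Symbols and coordinates came from GENCODE M21 on GRCm38, which matched 16429 identifiers, and upstream sequences from RefSeq on GRCm38.p6. Counts were tested with edgeR 4.0.16 in R 4.3.3 (filterByExpr with minimum count 10, minimum total 15, TMM, quasi-likelihood test, two-sided, 2 residual and 37.5 prior degrees of freedom), and Benjamini-Hochberg adjustment covered the 5878 tested genes with a threshold of 0.05. SE was taken as the size of the log2 fold change over the root of F. Alternatives were DESeq2 1.42.0, limma-voom (limma 3.58.1), bias-adjusted quasi-likelihood, median-of-ratios or total-count scaling, 2 other filters, the replicate number as a block, each library left out, thinning to the depth of the smallest library and a correction for transcript length. The totals of the whole table as library size and the neuronal scale without Map2 were added after seeing the data.

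The genes and lists were chosen with earlier results of these data known. Beyond the 9 genes, the text names from each list at most 4 called genes by smallest p, the 2 tested genes with the highest mean CPM, the 5 tested genes nearest to Cbln2 in profile, and Tut1. A gene that the rule picks is not reported here.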

Additional observations from a re-analysis of the deposited data

How the results depend on the processing

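The main test called 121 genes, 82 higher and 39 lower, among them Ncam1 and, in the families of adhesion and guidance, 5 genes, and 11 marker genes. DESeq2 called 12 genes (10 higher and 2 lower), no gene of the set, 0 genes of the families and 2 markers, and gave no adjusted p for Tut1, Cbln2, Cntn2, L1cam and Robo2, which its filter removed. Thinning every library to 305642 counts left 5356 tested genes and 38 calls (29 and 9), with 1 gene of the families, 6 markers and a Tut1 log2 fold change of 1.70 at an adjusted p of 0.0677. Leaving out each library gave 3 to 108 calls (3 to 79 higher, 0 to 29 lower), 0 to 1 genes of the set other than Cbln2, 0 to 4 genes of the families, 1 to 14 markers and a Tut1 log2 fold change of 1.39 to 2.13. The low counts came without replicate 1 labelled Tut1 knockout (3 calls), without replicate 2 labelled Tut1 knockout (35) and without WT replicate 1 (75). Total-count scaling, the bias-adjusted test and a filter of 10 counts in 2 libraries each called 2 genes of the set other than Cbln2, Ncam1 and Robo2. Total-count scaling also changed the split to 109 higher and 27 lower (80.2% higher against 67.8%). Why these settings moved the counts was not tested, beyond the smaller number of samples or reads in some.

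The replicate number as a block gave 76 calls (51 higher and 25 lower) and 3 genes of the families, and kept the call on Ncam1 (log2 fold change 0.94, adjusted p = 0.016). Deviations of same-numbered libraries from their group means correlated at -0.06 over 5878 genes, so the numbers were not taken to pair the libraries.

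Over 14 or 15 alternatives, 6 of the 7 tested genes of the set kept the sign of their log2 fold change. With a library left out, Cntn2 ranged from -0.23 to 0.32 and was negative without WT replicate 2 (-0.22) or replicate 1 labelled Tut1 knockout (-0.23), and it was -0.0097 after the length correction. The other named genes whose sign turned were not called with all 4 libraries, although Wnt8b was called lower without WT replicate 1 (-1.99, adjusted p = 0.000186), and with a library left out they ranged from -0.42 to 0.17 (Nlgn1), -0.76 to 0.34 (Nrxn2), -0.0029 to 0.41 (Neo1), -0.34 to 0.51 (Rgmb), -0.17 to 0.054 (Srgap3), -0.19 to 0.050 (Celsr2), -0.012 to 0.23 (Map2), -0.84 to 0.20 (Ebf2), -0.61 to 0.38 (Mfap4), -0.31 to 0.015 (Pax6), -1.99 to 0.62 (Wnt8b), -0.18 to 0.55 (Hba-a1) and -0.031 to 0.60 (Hba-a2). After thinning, Nlgn1 was at 0.091 and Srgap3 at 0.058. At this depth a gene under about 10 counts in WT, such as Cbln2, L1cam and Robo1, has a WT level known only to within a few reads.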
